A study of Mus musculus with 2 samples.

Results

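The 9 genes of myeloid C-type lectin receptors were followed: Clec4d, Clec4e, Clec4n, Clec7a, Clec9a, Clec10a, Clec12a, Clec4a2 and Cd209a. They were taken by symbol from the 32285 gene rows that both deposited count matrices share, and 8 of the 9 symbols matched a row. Clec7a, the gene of the beta-glucan receptor Dectin-1, matched no row by symbol or identifier and was not analysed here. GENCODE M21 lists it as a polymorphic pseudogene. The counts are unique molecular identifiers (UMIs, 1 per captured transcript molecule) from 10x 3′ v3.1 libraries of immune cells that had entered the gingiva of C57BL/6 mice with experimental periodontitis. There were 2 libraries, 1 from wild-type (WT) mice and 1 from mice labelled Otud1-/-, the genotype without the deubiquitinase gene Otud1. The age, sex and number of animals, the periodontitis protocol and time point, and the kind of Otud1 allele are not given in the sources used here.

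C-type lectin receptors are surface proteins through which myeloid cells recognise sugars and lipids of microbes and material from damaged cells. Mincle (Clec4e), MCL (Clec4d) and Dectin-2 (Clec4n) signal through the adaptor Fc receptor gamma chain (Fcer1g) to the kinase Syk and the scaffold Card9, which lead to NF-kB and cytokine transcription. DCIR (Clec4a2) and MICL (Clec12a) carry inhibitory tyrosine motifs that recruit phosphatases and restrain activation. DNGR-1 (Clec9a) binds actin exposed by dead cells, MGL1 (Clec10a) binds galactose-type sugars, and Cd209a is a mouse relative of human DC-SIGN. Clec9a, Clec10a and Cd209a are known from dendritic cell (DC) subsets, though Clec10a not only from these.

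Of the 8 measured genes 6 lie on mouse chromosome 6 (GENCODE annotation M21, mm10). Clec4a2 spans chr6:123106428-123143999, Clec4n chr6:123229843-123247021 and Clec4d chr6:123262111-123275265, all on the plus strand, and Clec4e spans chr6:123281789-123289870 on the minus strand. Clec4d and Clec4e are direct neighbours whose 3′ ends face each other across 6523 bp. Clec12a (chr6:129342691-129365303) and Clec9a (chr6:129408862-129424763) form a second group on the plus strand. Cd209a lies at chr8:3743397-3748984 on the minus strand and Clec10a at chr11:70156197-70170834 on the plus strand. All 8 are annotated as protein coding. The last 500 bases of the Clec4d, Clec4e, Clec12a and Cd209a transcripts share no 50-base window with a transcript of another gene. In Clec10a 15.6% of such windows also occur in Mgl2, in Clec4a2 8.96% occur in Clec4a4 or Clec4b1, in Clec9a 3.02% occur in the overlapping gene Clec1b, and in Clec4n 1.47% occur in Gm44147, so reads from those windows of these 4 genes fit more than 1 gene.

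The 250 bases before the annotated start are printed for Clec4d and Clec4e, the neighbours whose levels followed each other across cell classes, and for Cd209a, which did not follow them (RefSeq sequences, GRCm38.p6, 5′ to 3′ on the gene's strand). Capitals mark matches to 5 motifs searched on both strands: GAGGAA (the ETS and PU.1 core), TTGCNNAA (C/EBP), TGANTCA (AP-1), GGAA followed after any 2 bases by GAAA (the PU.1-IRF composite) and GGG followed after any 2 bases by TTTCC (NF-kB).
Clec4d, chr6:123261857-123262106, plus strand: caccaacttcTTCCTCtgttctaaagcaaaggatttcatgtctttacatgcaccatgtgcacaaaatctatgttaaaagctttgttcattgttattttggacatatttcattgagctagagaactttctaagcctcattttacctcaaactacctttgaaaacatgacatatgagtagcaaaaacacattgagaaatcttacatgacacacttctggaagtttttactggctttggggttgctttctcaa
Clec4e, chr6:123289872-123290121, minus strand: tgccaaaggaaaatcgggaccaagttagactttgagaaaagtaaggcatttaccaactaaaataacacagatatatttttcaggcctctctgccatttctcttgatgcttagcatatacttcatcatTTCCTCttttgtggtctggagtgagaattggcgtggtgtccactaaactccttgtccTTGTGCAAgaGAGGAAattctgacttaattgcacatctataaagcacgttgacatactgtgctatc
Cd209a, chr8:3748985-3749234, minus strand: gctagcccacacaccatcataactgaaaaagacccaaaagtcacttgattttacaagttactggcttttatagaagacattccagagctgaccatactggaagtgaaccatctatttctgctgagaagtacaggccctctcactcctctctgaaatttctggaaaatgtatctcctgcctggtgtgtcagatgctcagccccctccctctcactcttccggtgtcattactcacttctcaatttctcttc
The Clec4e window held a C/EBP match that began 66 bases before the start, and GAGGAA matches that began 56 and 123 bases before it. Clec4d held 1 GAGGAA match, 240 bases before the start, and Cd209a held no match to any of the 5 motifs. Among the 32851 mouse promoter windows of this length, 23.3% hold GAGGAA, which may overlap the composite, 9.56% the C/EBP letters, 6.75% the AP-1 letters, 2.30% the composite and 1.41% the NF-kB letters. These matches describe the letters only.

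Each genotype had 1 library, so differences between libraries have no replicate check, no test was possible, and intervals cover counting error only. The WT library held 13267 cell barcodes with 44878537 UMIs and the library labelled Otud1-/- 8109 barcodes with 44083735 UMIs, at a median of 2241 and 3716 UMIs per barcode. After filtering, 11414 and 6486 cells were kept, and 37 barcodes occurred in both libraries. Otud1 itself was counted at 18.6 counts per 1000000 UMIs (CPM; 95% interval 17.3 to 19.9) in the WT library and at 33.0 CPM (31.4 to 34.8) in the other, which goes against the label, so that library is called the library labelled Otud1-/- throughout. Whether the labels were exchanged was not tested, and 3′ reads that lie outside the deleted part of a gene would check nothing about the label, so the direction of every ratio is that of the labels only. Xist was detected in 34.4% of kept WT cells and in 0.0463% of kept cells of the other library. Y-linked transcripts were detected in 31.0% and 63.0% of these cells. The WT library thus held cells of both sexes and the other library almost only male cells, so the libraries also differed in the sex of the cells. Cell classes were rebuilt by clustering without the receptor genes and named from marker lists, hence "-like". The compared classes held, in the WT library and the other, 733 and 867 neutrophil-like, 877 and 407 monocyte-like, 699 and 125 macrophage-like, 163 and 73 type 1 DC-like, 258 and 176 type 2 DC-like, and 630 and 63 plasmacytoid DC-like cells. Their median UMIs per cell ran from 1576 to 2749 in WT and from 1494 to 11556 in the other library. Every level is the receptor's UMIs over all UMIs of the class, so it does not depend on how many cells the class holds.

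Most Clec4d and Clec4e UMIs of the kept cells lay in neutrophil-like and monocyte-like cells, while the DC-subset receptors were spread over smaller classes. Neutrophil-like cells were 6.42% of the kept WT cells and held 52.1% of its 4640 Clec4d UMIs. In the library labelled Otud1-/- they were 13.4% of cells and held 68.2% of 13275 Clec4d UMIs. Clec4e followed, with 36.6% of 7696 UMIs and 57.4% of 13510 UMIs in neutrophil-like cells and a further 28.9% and 31.4% in monocyte-like cells. Clec4a2 was held mainly by monocyte-like (21.2% and 37.2%), macrophage-like (23.2% and 13.6%) and unnamed clusters (38.6% and 23.2%), and neutrophil-like cells held 5.21% and 14.7%. Of the 349 Clec9a UMIs in WT, 45.6% lay in plasmacytoid DC-like and 17.8% in type 1 DC-like cells, and of the 184 in the other library 25% and 31.0%. Unnamed clusters held 45.5% of Cd209a in WT and 29.7% in the other library, and type 2 DC-like cells 23.7% and 48.7%. For Clec10a unnamed clusters held 27.8% and 20.4%, plasmacytoid DC-like cells 22.2% and 14.2%, macrophage-like cells 15.3% and 7.73%, and type 2 DC-like cells 13.3% and 39.2%.

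**Figure D1:**
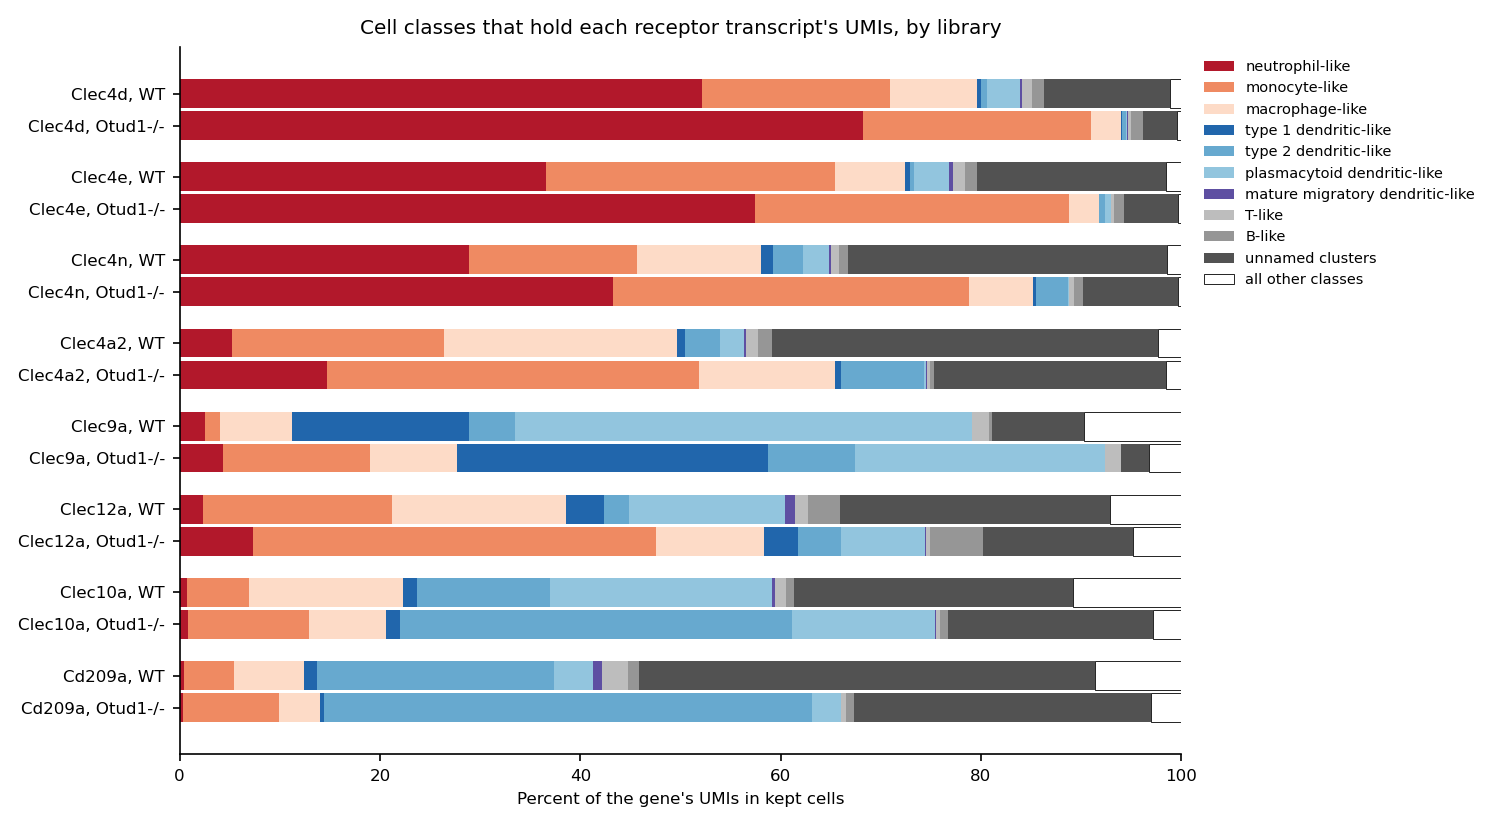
Percent of each receptor gene's UMIs in kept cells (x axis) that lies in each cell class, with 1 bar per gene and library. Neutrophil-like cells hold 52.1% (WT) and 68.2% (library labelled Otud1-/-) of Clec4d, and type 2 DC-like cells 23.7% and 48.7% of Cd209a.

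Among the activating receptors, Clec4d had the same order of classes at its upper end in both libraries. In WT it stood at 1561 CPM (95% interval 1499 to 1624) in neutrophil-like, 326 CPM in monocyte-like and 122 CPM in macrophage-like cells. The same classes of the library labelled Otud1-/- had 2921 CPM (2861 to 2982), 677 CPM and 220 CPM. The intervals of these 3 classes did not overlap in either library, and neutrophil-like cells stood 4.78-fold and 4.31-fold above monocyte-like cells. Plasmacytoid, type 1 and type 2 DC-like cells ranged from 21.2 to 82.5 CPM, against 7.90 and 10.5 CPM in T cell-like cells, a class that should lack the receptor. In WT the 82.5 CPM of plasmacytoid DC-like cells was above the 30.1 CPM of type 2 DC-like cells beyond the intervals, whereas in the other library the 3 DC classes overlapped.

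Free neutrophil RNA can add UMIs to other droplets, so the level it would bring was computed from each class's S100a8 and S100a9, the abundant calgranulin transcripts of neutrophils. For Clec4d that level was 138 and 331 CPM in monocyte-like cells (WT and the library labelled Otud1-/-), 45.4 and 121 CPM in macrophage-like cells and 85.7 and 6.97 CPM in plasmacytoid DC-like cells. The measured Clec4d levels of monocyte-like and macrophage-like cells were above it, and the 82.5 CPM of WT plasmacytoid DC-like cells was not. For type 1 DC-like cells it was 81.5 and 9.99 CPM beside measured levels of 25.4 and 21.2 CPM. For T cell-like cells it was 5.39 and 8.20 CPM beside 7.90 and 10.5 CPM measured. The computed level is thus inexact, and the part of free RNA in any class was not tested.

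Clec4e, the trehalose glycolipid receptor, was also highest in neutrophil-like cells, at 1815 CPM (1749 to 1883) in WT and 2503 CPM (2447 to 2559) in the library labelled Otud1-/-. Monocyte-like cells followed at 830 and 948 CPM, beside the 160 and 284 CPM computed for neutrophil RNA. Macrophage-like cells had 164 and 227 CPM, beside 52.8 and 104 CPM computed for neutrophil RNA. Next came plasmacytoid DC-like cells at 151 and 133 CPM, but in the library labelled Otud1-/- 53.8% of the 78 UMIs of that class came from 1 cell. Neutrophil RNA would bring 99.7 and 5.97 CPM to plasmacytoid DC-like cells. Macrophage-like and plasmacytoid DC-like cells overlapped in WT and not in the other library.

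Clec4n, the receptor of fungal mannans, followed at lower counts. Neutrophil-like cells had 261 and 299 CPM, monocyte-like cells 88.1 and 170 CPM and macrophage-like cells 52.4 and 77.2 CPM. Type 2 DC-like cells had 42.2 and 39.3 CPM, which overlapped the macrophage-like level in WT only, against 1.94 and 2.01 CPM in T cell-like cells. Neutrophil RNA would bring 1.09 and 0.627 CPM to type 2 DC-like cells.

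Shares of cells with a UMI were compared after thinning each cell to 1000 UMIs, which left out 138 and 64 shallower neutrophil-like cells. Clec4d was then detected in 65.0% of 595 WT and 91.3% of 803 neutrophil-like cells of the library labelled Otud1-/- (77.1% and 96.8% before thinning). Clec4e was detected in 63.5% and 80.4% of the same cells, and Clec4n in 16.5% and 19.4%. Of these cells 436 of 595 in WT were in cluster M2 and 761 of 803 in the other library in cluster M0, which are compared below. The part of this difference in the shares was not tested. In thinned T cell-like cells Clec4d was found in 0.826% and 1.42% of cells, which is read as background. In monocyte-like cells the thinned shares were 25.9% and 39.4% for Clec4d and 47.3% and 51.9% for Clec4e.

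Clec4d and Clec4e were often found in the same cell. Both were detected in 46.1% of thinned WT neutrophil-like cells, where the product of the separate shares is 41.3%, and in 74.3% against 73.4% in the library labelled Otud1-/-. In monocyte-like cells the shares with both were 15.6% against 12.3% and 25.6% against 20.5%. Only 2.62% of thinned neutrophil-like cells of the library labelled Otud1-/- lacked a UMI of either gene, compared with 17.5% in WT. As given above, these cells were mostly of different clusters in the 2 libraries.

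Of the inhibitory receptors, Clec4a2 was highest in monocyte-like cells (109 and 118 CPM), which overlapped macrophage-like cells (97.2 and 109 CPM) in both libraries. Neutrophil-like cells had 46.5 and 67.4 CPM, near the 49.2 and 66.8 CPM of type 2 DC-like cells. Type 1 and plasmacytoid DC-like cells had 5.11 to 18.3 CPM. Clec12a, a receptor for uric acid crystals, had another order: plasmacytoid DC-like cells were highest at 194 and 245 CPM, then monocyte-like (158 and 154 CPM), type 1 DC-like (133 and 121 CPM) and macrophage-like cells (118 and 104 CPM). The monocyte-like level overlapped the type 1 DC-like level, which overlapped the macrophage-like level, in each library. Neutrophil-like cells, which led for the activating receptors, came last for Clec12a at 34.2 and 40.7 CPM, overlapping type 2 DC-like cells (56.2 and 41.0 CPM) in each library.

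Clec9a was highest in 2 DC classes. Type 1 DC-like cells had 98.3 CPM (75.3 to 126) in WT and 121 CPM (91.4 to 156) in the library labelled Otud1-/-, from 62 and 57 UMIs, and plasmacytoid DC-like cells had 88.1 and 78.4 CPM. These intervals overlap in each library. In WT the erythroid (5545 CPM) and neutrophil marker sums (3509 CPM) of the type 1 DC-like class exceeded its type 1 DC marker sum (2040 CPM). At resolution 2, a cluster led by the type 1 DC marker Xcr1 held only 68 and 28 cells. The type 1 DC-like level is therefore that of a mixed cluster, and equal Clec9a in the 2 kinds of DC is not shown. The remaining 4 classes ranged from 1.87 to 16.1 CPM, and T cell-like cells had 0.968 and 0.671 CPM. Clec9a was left out of the variable genes and the marker lists. The naming rule was nevertheless set with receptor levels per cluster in view, so the class names are not independent of Clec9a.

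Among the compared classes Cd209a was highest in type 2 DC-like cells, at 426 CPM (386 to 468) in WT. It stood at 591 CPM (556 to 628) in the library labelled Otud1-/-. These levels were 11.1-fold and 5.69-fold above the next class. Unnamed clusters were left out of this ranking, and 1 of them, M15, had 426 and 479 CPM. Clec10a was high in type 2 DC-like (128 and 199 CPM) and plasmacytoid DC-like cells (119 and 220 CPM), which overlapped in each library and exchanged ranks, so 7 of the 8 genes had the same highest class in both. Mast cell or basophil-like cells, too few to be compared in the library labelled Otud1-/- (21 cells), had 207 and 213 CPM of Clec10a. In thinned type 2 DC-like cells both Clec10a and Cd209a were detected in 4.17% of WT cells, where the separate shares give 2.08%, and in 8.52% against 6.00% in the other library.

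**Figure D2:**
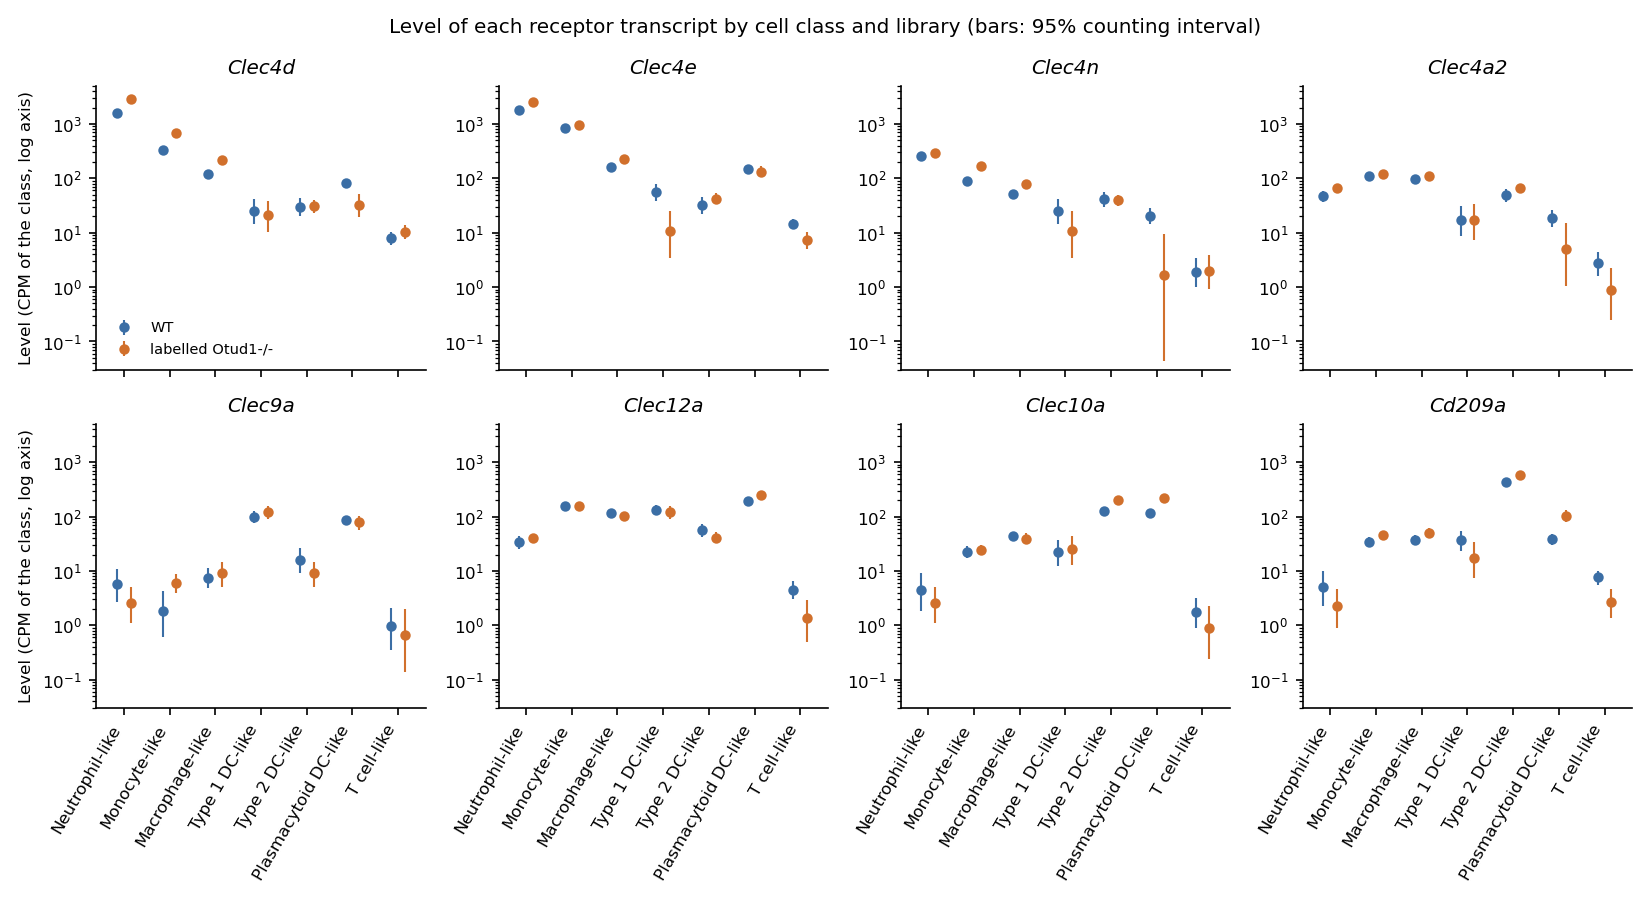
Level of each receptor transcript (y axis, CPM of the class, log axis) in 6 myeloid classes and in T cell-like cells, with WT and the library labelled Otud1-/- side by side and 95% counting intervals. Clec4d falls from 1561 and 2921 CPM in neutrophil-like cells to 7.90 and 10.5 CPM in T cell-like cells, while Cd209a peaks at 426 and 591 CPM in type 2 DC-like cells.

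Several unnamed myeloid clusters also carried the receptors. Cluster M15, led by Retnla, Lyz1 and Fcrls, had 426 and 479 CPM of Cd209a and 196 and 229 CPM of Clec4a2. Cluster M1, led by Tbc1d4, Tnip3 and Cxcl16, had 171 and 320 CPM of Cd209a. Cluster M3, led by Cfb, Ly6i and Cxcl9, had 446 and 239 CPM of Clec4e. Cluster M16, led by the secondary granule genes Ngp, Camp and Ltf, had 102 CPM of Clec4d in WT (98 cells) and 643 CPM in the library labelled Otud1-/- (18 cells). Both M16 levels lay below those of the neutrophil-like clusters M0 (2459 and 3042 CPM) and M2 (1106 and 1539 CPM), although S100a8 and S100a9 in M16 (81071 and 196907 CPM) exceeded their levels in M2 (43330 and 50603 CPM).

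The libraries were compared in every class with at least 50 cells in each, for genes with a mean level of at least 20 CPM and at least 20 UMIs in the higher library. A pair of gene and class was called at 1.5-fold. Of 48 pairs 36 could be compared, and 7 were higher and 3 lower in the library labelled Otud1-/-, while 26 lay under 1.5-fold. Of all genes compared, 3.21% to 14.0% were higher and 2.82% to 28.8% lower by that fold, depending on the class. Clec4d accounted for 3 of the 7 higher pairs, in neutrophil-like, monocyte-like and macrophage-like cells.

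For neutrophil-like cells, Clec4d was 1.87-fold higher (95% interval 1.79 to 1.96, log2 ratio 0.90), from 2419 and 9054 UMIs, and none of the other 4 receptors compared passed 1.5-fold. Of all 4180 genes compared there, 14.0% were higher and 28.8% lower by that fold, and the median log2 ratio of all genes was -0.13 against 0.46 for the 5 receptors. Clec4e was 1.38-fold (1.32 to 1.44) and Clec4a2 1.45-fold (1.11 to 1.92), and centring on the median of all genes would take both past 1.5-fold. The class was made of different clusters in the 2 libraries: 572 of 733 WT cells were in M2 (led by Retnlg and Mmp9) and 775 of 867 cells of the other library in M0 (led by Stfa2l1 and Cxcr2). Within M0 the Clec4d ratio was 1.24 (1.17 to 1.31), and within M2 it was 1.39 (1.24 to 1.56), so neither cluster alone passed 1.5-fold. None of the 5 receptors compared in M0 or the 3 in M2 did, beside 8.09% of all genes higher and 8.98% lower in M0, and 8.74% higher and 22.5% lower in M2. Summed neutrophil markers were 68737 CPM in WT and 109531 CPM in the library labelled Otud1-/- (15 of 15 detected in both), T cell markers 528 and 60.7 CPM (16 and 15 of 16), B cell markers 1596 and 356 CPM (10 of 10 in both) and macrophage markers 911 and 544 CPM (12 and 14 of 15), and their part in the receptor ratios was not tested. For Clec4e the ratio was 0.92 (0.87 to 0.97) within M0 and 1.48 (1.33 to 1.64) within M2, and for Clec4n it was 0.73 (0.63 to 0.85) and 1.07 (0.76 to 1.48).

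In monocyte-like cells Clec4d was 2.08-fold higher (1.92 to 2.24) and Clec4n 1.93-fold higher (1.67 to 2.24), 2 of 7 receptors compared and none lower, beside 6.76% of all 5136 genes higher and 4.93% lower. Clec4e was 1.14-fold, Clec12a 0.97-fold and Clec4a2 1.08-fold. Most WT cells lay in clusters M5 and M7 (402 and 359 of 877) and most cells of the other library in M12 and M11 (171 and 156 of 407). Within M5 Clec4d was 2.30-fold higher (1.87 to 2.83), from 228 to 525 CPM. Within M11 it was 1.25-fold (1.08 to 1.47), from 416 to 522 CPM. M12, led by Gbp2 and Cfb, had 212 of the 874 Clec4d UMIs of the class in WT and 2002 of 3030 in the other library. Its level was 482 CPM in 41 WT cells and 829 CPM in 171 cells, beside 332 and 574 CPM that neutrophil RNA would bring at its 12323 and 18237 CPM of S100a8 and S100a9. Clec4n in M12 was 125 and 130 CPM, with overlapping intervals. Clec4n was 2.89-fold higher (2.11 to 4.04) within M11 and 1.57-fold higher (1.06 to 2.31) within M5. M5 had 4 of 6 receptors called higher (Clec4d, Clec4e, Clec4n and Cd209a, the last with an interval of 0.96 to 2.39 that includes no difference) and both inhibitory receptors lower, Clec12a at 0.60-fold (0.39 to 0.89) and Clec4a2 at 0.64-fold (0.42 to 0.96), beside 6.67% of all genes higher and 16.9% lower. M11 had 1 of 7 called higher and none lower, beside 13.1% and 9.67% of all genes. The summed level of the 15 neutrophil markers was 6440 CPM in WT and 12903 CPM in the library labelled Otud1-/-, all 15 with UMIs in both, and its part in the Clec4d and Clec4n ratios was not tested. M11, with 434 and 1255 CPM of S100a8 and S100a9, would receive 11.7 and 39.5 CPM of Clec4d from neutrophil RNA. With the receptors kept among the variable genes, the Clec4n log2 ratio of the class was 0.54, under 1.5-fold.

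For macrophage-like cells, Clec4d was 1.80-fold higher (1.56 to 2.07), 1 of 7 receptors compared and none lower, beside 3.21% of all 5392 genes higher and 2.82% lower. Clec4n was 1.47-fold (1.17 to 1.85) and Clec4e 1.39-fold (1.22 to 1.58). Summed neutrophil markers were 2042 and 4583 CPM, with all 15 detected in both libraries, and their part was not tested. Within cluster M8, led by Pf4 and Mrc1, Clec4d went from 181 to 273 CPM and Cd209a from 46.1 to 90.2 CPM (1.96-fold, 1.40 to 2.76). These were the 2 of 7 receptors called there, beside 5.89% of all genes higher and 5.82% lower. The Clec4d log2 ratio within M8 was 0.588, barely past 1.5-fold. Neutrophil RNA would bring 58.6 and 157 CPM of Clec4d to M8, at its 2175 and 4987 CPM of S100a8 and S100a9. The part of neutrophil RNA in the M8 Clec4d ratio was not tested. Over the whole class the Cd209a ratio was 1.32, and 47.2% of the 89 UMIs in the library labelled Otud1-/- came from 1 cell.

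**Figure D3:**
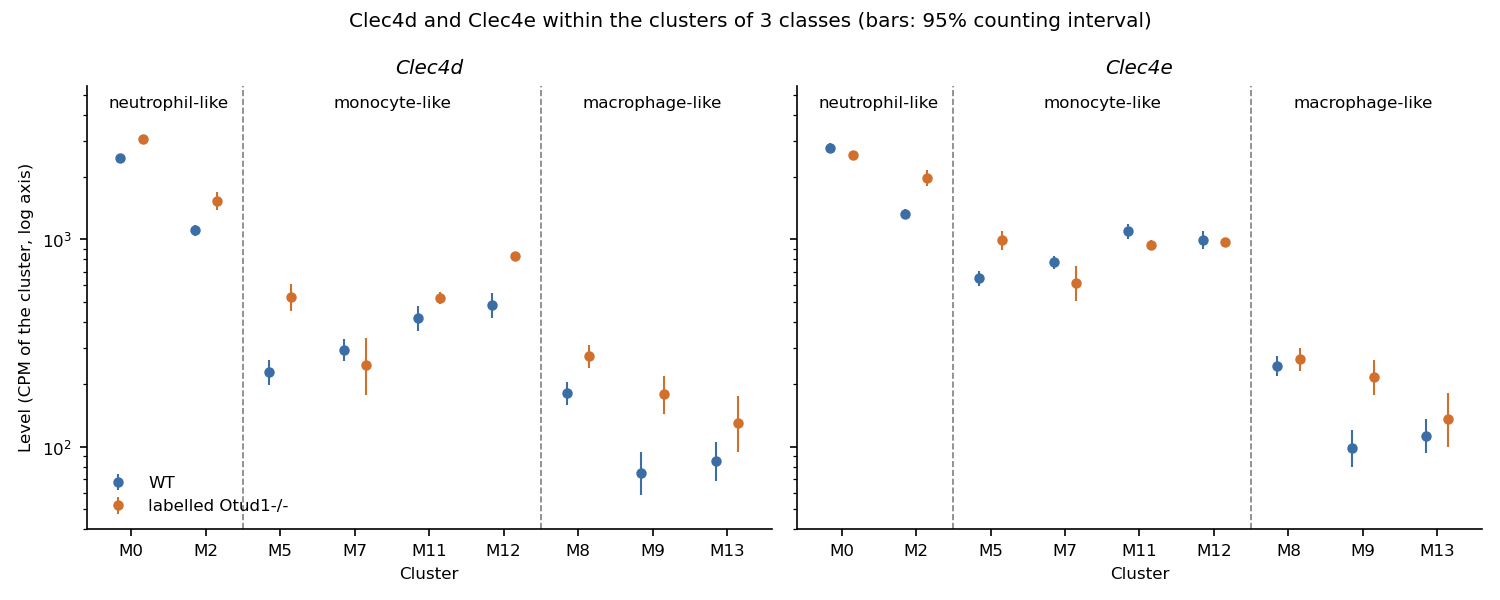
Level of Clec4d and Clec4e (y axis, CPM of the cluster, log axis) in the clusters that make up the neutrophil-like, monocyte-like and macrophage-like classes, by library, with 95% counting intervals. Clec4d in M0 is 2459 CPM in WT and 3042 CPM in the library labelled Otud1-/-, both above the 1106 and 1539 CPM of M2.

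In type 2 DC-like cells, a single cluster, Clec10a was 1.55-fold higher (1.26 to 1.91) and Cd209a 1.39-fold (1.24 to 1.56), 1 of 7 receptors called higher and none lower, beside 3.24% of all 4692 genes higher and 11.3% lower. The median log2 ratio was -0.10 for all genes and 0.39 for the 7 receptors. Clec12a was 0.73-fold (0.51 to 1.05). Summed macrophage markers were 676 CPM in WT and 134 CPM in the other library (14 and 12 of 15 detected) and monocyte markers 2417 and 1812 CPM (14 and 12 of 14), and their part was not tested. Mgl2, the gene that shares transcript windows with Clec10a, moved the other way, from 211 to 96.6 CPM.

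In plasmacytoid DC-like cells Clec10a was 1.85-fold higher (1.48 to 2.32) and Cd209a 2.72-fold higher (1.89 to 3.89), from 38.2 to 104 CPM, while Clec4d was 0.39-fold (0.23 to 0.63). These were 2 higher and 1 lower of 6 receptors compared, beside 5.68% and 12.5% of all 4825 genes. Summed plasma cell markers were 1102 CPM in WT and 5891 CPM in the other library (5 and 6 of 6 detected) and macrophage markers 1457 and 513 CPM (14 and 11 of 15), and their part was not tested. Of the 630 WT cells 576 were in cluster M4 and of the 63 cells of the other library 51 were in M17. Within M17 (54 and 51 cells) Clec10a was 1.63-fold higher (1.21 to 2.20), from 167 to 272 CPM, and Cd209a 4.24-fold higher (2.29 to 8.46), from 13 and 56 UMIs, beside 7.82% of all genes higher and 15.9% lower there. Clec9a was 0.71-fold (0.48 to 1.07) and Clec12a 1.26-fold (0.96 to 1.64) within M17, and Clec4e was lower there (0.09-fold, 0.01 to 0.35, from 23 and 2 UMIs), so 2 of 5 receptors compared were higher and 1 lower. Over the whole class Clec4e had a log2 ratio of -0.18, which became -1.10 without the cell with most of its UMIs in each library. S100a8 and S100a9 went from 3179 to 221 CPM over the class, and their part in the Clec4d ratio was not tested. Of the 19 Clec4d UMIs in the library labelled Otud1-/-, 42.1% came from 1 cell. Without doublet removal the Clec4d log2 ratio was -0.20, under 1.5-fold.

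In type 1 DC-like cells Clec9a was 1.23-fold (0.84 to 1.79) and Clec12a 0.91-fold (0.64 to 1.28). Clec4e was 0.19-fold (0.06 to 0.49), from 35 and 5 UMIs, and Cd209a 0.46-fold (0.18 to 1.08), from 23 and 8 UMIs. These 2 of 4 receptors compared were called lower and none higher, beside 18.9% of all 3625 genes lower and 6.81% higher, with a median log2 ratio of -0.17 over all genes. S100a8 and S100a9 were 3023 CPM in WT and 317 CPM in the other library, and neutrophil RNA at those levels would bring 94.8 and 8.56 CPM of Clec4e, beside the 55.5 and 10.6 CPM measured. Summed erythroid markers were 5545 CPM in WT and 44.4 CPM in the other library (6 and 5 of 8 detected), all neutrophil markers 3509 and 554 CPM (14 of 15 in both) and the type 1 DC markers 2040 and 2476 CPM (11 of 11), so in WT the first 2 sums exceeded that of the class's own markers. Their part in the ratios was not tested. The interval of Cd209a includes no difference.

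**Figure D4:**
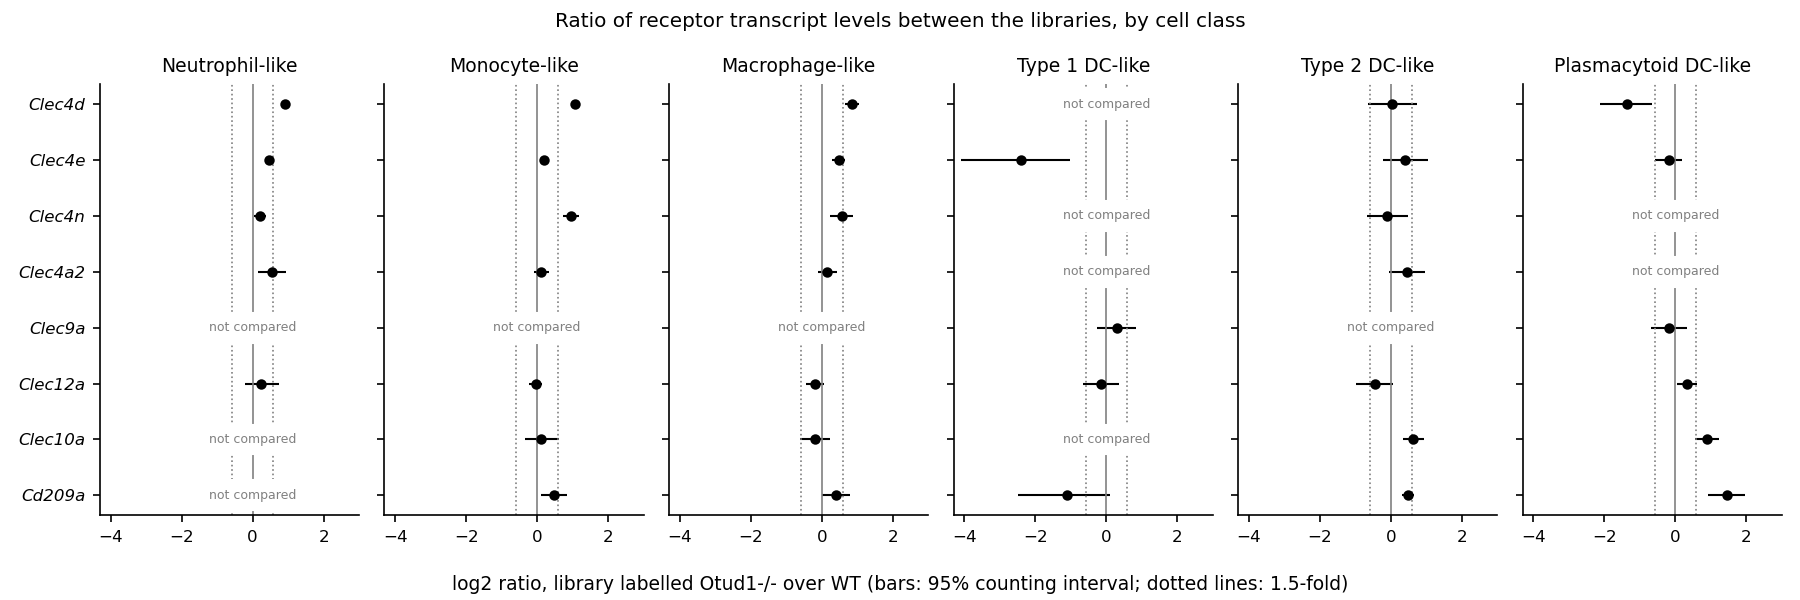
Log2 ratio of each receptor's level, library labelled Otud1-/- over WT (x axis), in 6 classes, with 95% counting intervals and dotted lines at 1.5-fold. Clec4d lies above 1.5-fold in neutrophil-like (1.87-fold), monocyte-like (2.08-fold) and macrophage-like cells (1.80-fold) and below it in plasmacytoid DC-like cells (0.39-fold).

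The 3 unnamed myeloid clusters with at least 50 cells in each library were compared in the same way. In M1 Clec4d (39.0 to 84.4 CPM), Clec10a (67.8 to 143 CPM) and Cd209a (171 to 320 CPM) were higher, 3 of 7 receptors compared and none lower, beside 4.90% of all genes higher and 10.1% lower. In M3 Clec10a was higher (1.57-fold, 0.91 to 2.62) and Clec4e (0.54-fold, 0.44 to 0.64) and Cd209a (0.42-fold, 0.21 to 0.77) were lower, of 7 compared, beside 6.04% and 10.4% of all genes. In M15 Clec4d (2.44-fold, 1.71 to 3.56), Clec4e, Clec10a and Clec12a were higher and none of 7 was lower, beside 11.8% and 11.6% of all genes, and S100a8 and S100a9 were 330 and 3436 CPM there.

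Because the libraries differed in sex, the comparison was repeated in cells with Y-linked and without Xist UMIs, in classes with at least 20 such cells per library. All 7 higher pairs kept their call: the log2 ratio of Clec4d was 0.75 in neutrophil-like, 0.97 in monocyte-like and 0.68 in macrophage-like cells, that of Clec4n in monocyte-like cells 0.67, that of Clec10a 1.40 in type 2 and 1.59 in plasmacytoid DC-like cells, and that of Cd209a in plasmacytoid DC-like cells 2.06. Clec4d in plasmacytoid DC-like cells stayed lower at -1.62, and type 1 DC-like cells were too few. The share of all genes past 1.5-fold in this subset is not given here, so its calls have no background beside them. Values shifted, since the last 3 higher pairs had log2 ratios of 0.63, 0.89 and 1.44 in all cells. Some pairs under 1.5-fold in all cells passed it here. Among them were Cd209a in monocyte-like, macrophage-like and type 2 DC-like cells (higher) and Clec4e in plasmacytoid DC-like cells (lower).

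Genes that act with the receptors were read from 4 lists. Of 20 genes of Syk-Card9 signalling, 17 were compared in neutrophil-like cells, and 2 were higher and 1 lower, with a median log2 ratio of 0.20 against -0.13 for all genes, of which 14.0% were higher and 28.8% lower. The 2 higher genes were the adaptor partners of activating receptors, Fcer1g (1695 to 2721 CPM, 1.61-fold) and Tyrobp (3608 to 6389 CPM, 1.77-fold), and the lower was the phospholipase gene Plcg2 (61.3 to 30.3 CPM). Card9 itself was at 9.03 CPM in each library, under the level set for comparison. In monocyte-like and macrophage-like cells none of the 17 genes compared passed 1.5-fold in either direction, beside 6.76% and 3.21% of all genes higher and 4.93% and 2.82% lower. Type 1 DC-like cells had 1 of 16 higher and 5 lower, among them the exchange factor gene Vav1 (52.3 to 16.9 CPM) and the Card9 partner Malt1 (333 to 116 CPM). Type 2 DC-like cells had 2 of 17 lower, among them the kinase gene Lyn (384 to 253 CPM), plasmacytoid DC-like cells 1 of 17, the NF-kB gene Rel (0.55-fold, 0.44 to 0.69), and neither had one higher. Among all genes of the type 1, type 2 and plasmacytoid DC-like classes 18.9%, 11.3% and 12.5% were lower and 6.81%, 3.24% and 5.68% higher. Of 4 compared genes that serve the inhibitory receptors, 2 were lower in neutrophil-like cells, beside 28.8% of all genes, the phosphatase gene Ptpn11 (27.1 to 15.8 CPM) and the kinase gene Csk (70.3 to 46.5 CPM), and none passed 1.5-fold in monocyte-like, macrophage-like, type 2 DC-like or plasmacytoid DC-like cells. In type 1 DC-like cells Ptpn11 was lower (61.8 to 38.1 CPM, an interval of 0.33 to 1.10 for the ratio).

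Transcripts known to follow Syk-Card9 signalling moved in both directions. In neutrophil-like cells 1 of 12 was higher and 4 were lower, near the 14.0% and 28.8% of all genes: the neutrophil chemokine gene Cxcl3 went from 509 to 941 CPM, while Cxcl1 was 0.31-fold (0.25 to 0.39) and the cytokine gene Il23a 0.48-fold (0.33 to 0.70). Monocyte-like cells had 2 of 12 higher, Cxcl3 (78.4 to 256 CPM) and Il12b (13.4 to 36.4 CPM), and 1 lower, the chemokine gene Ccl3 (416 to 264 CPM), beside 6.76% and 4.93% of all genes. Macrophage-like cells had 3 of 13 higher, Il12b (30.9 to 128 CPM), Cxcl3 (33.0 to 77.2 CPM) and Il10 (91.1 to 158 CPM), and 1 lower, beside 3.21% and 2.82% of all genes. Type 1 DC-like cells had 1 of 8 higher, Il12b (74.5 to 161 CPM), and 3 lower, and type 2 DC-like cells 1 of 6 higher, Il1b (1990 to 3299 CPM), and 2 lower, Ccl3 (57.2 to 22.5 CPM) and Cxcl2 (461 to 187 CPM), beside the shares of all genes given above. In plasmacytoid DC-like cells all 8 compared were lower, among them Cxcl2 (1381 to 111 CPM) and Tnf (53.2 to 5.11 CPM), beside 12.5% of all genes lower and S100a8 and S100a9 at 3179 and 221 CPM.

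Among 38 other C-type lectin genes, 7 were compared in neutrophil-like cells, with 3 higher and 2 lower, beside 14.0% and 28.8% of all genes. Cd93 was 2.95-fold higher (2.12 to 4.20), whereas Cd72, a B cell lectin, went from 52.9 to 17.1 CPM and the activation marker Cd69 from 178 to 81.6 CPM. The B cell markers of the same cells were 1596 and 356 CPM, as given above, and their part in the Cd72 value was not tested. Clec5a, another activating receptor of myeloid cells, went from 38.1 to 75.1 CPM in monocyte-like cells, where 2 of 12 were higher and 1 lower, beside 6.76% and 4.93% of all genes. Macrophage-like cells had 1 of 14 higher, Cd93, and 1 lower, Klrb1b, beside 3.21% and 2.82% of all genes, and type 1 DC-like cells 1 of 5 higher and 2 lower, beside 6.81% and 18.9%. In plasmacytoid DC-like cells Cd209d went from 48.7 to 252 CPM, beside Cd209a, with 1 of 8 higher and 3 lower, beside 5.68% and 12.5% of all genes. In type 2 DC-like cells Cd207, the langerin gene, went from 5.02 to 37.6 CPM, with 2 of 15 higher and 4 lower, beside 3.24% and 11.3% of all genes.

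Across 20 points, the 10 classes with at least 50 cells in each library times 2 libraries, the log2 levels of Clec4d and Clec4e had a Pearson r of 0.95, Clec4n and Clec4a2 of 0.92 and Clec10a and Cd209a of 0.93. The lowest value, 0.09, was between Clec4d and Cd209a. These points share 2 libraries and their free RNA, so no p is given. By the same measure the gene nearest to Clec4d was Hcar2 (0.98), a metabolite receptor of neutrophils, and those nearest to Clec4e were Cdc42ep2 (0.99), Thbs1 (0.98) and Trem1 (0.97), an activating receptor of neutrophils and monocytes. Clec4n was nearest to Nlrp3 and Il1b (both 0.97). Clec4a2 was nearest to Bach1 (0.98), with Csf1r, the receptor for macrophage growth factor, at 0.96, and Clec12a to Psap (0.98) and Mpeg1 (0.97). Clec9a was nearest to Fmnl2 (0.95) and Tbc1d8 (0.92). Clec10a was nearest to Ppfia4 (0.94). For Cd209a the nearest gene was Clec10a, followed by Fcor and Clec4b1 (both 0.86).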

How the data were processed

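Gingival immune cells of 2 libraries, 1 per genotype, were measured by 10x 3′ v3.1 single-cell RNA-seq. The deposited matrices hold raw UMI counts per gene and barcode, made by the authors with Cell Ranger, version 6.0.1 per the file headers and 5.0.0 per the submitters' processing notes, which also name mm10 and Seurat 3.2.3. Barcodes needed 200 detected genes or more and a mitochondrial share of UMIs of 15% or less (12769 passed in WT and 6936 in the other library). The automatic threshold of scrublet called 0 doublets in each library, so the highest-scoring 10.6% and 6.49% were removed, at 0.8% per 1000 barcodes. Kept cells had a median of 2305 and 4170.5 UMIs. Of the 37 barcodes shared by the libraries 24 were kept.

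Cells were clustered in 2 stages, all and then myeloid, with scanpy 1.11.5 and leidenalg 0.10.2 (2000 variable genes without the receptors, 30 components, 20 neighbours, resolution 1). A cluster took the class with most markers of 23 sets among its top 100 genes by ratio to other cells (detected in at least 25% of its cells), with at least 3 markers, no tie, no other class with more among the top 10, and fewer than 2 others with as many. This rule was set after other forms had been tried on these data (top 50 genes, detection in 10%, and markers at least 4-fold higher), with receptor levels per cluster in view. The members and lists, too, were chosen with earlier results of these data known. The 9 receptors were all named; of each pathway list up to 3 genes per class with the largest absolute log2 ratio among those compared were named, and for likeness the 3 genes with the highest r of log2(CPM + 1), among genes of at least 50 CPM in some point.

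UMIs were summed per class and library and divided by the class total (CPM). Intervals at 95% are exact Poisson for levels, conditional binomial for ratios and Clopper-Pearson for shares, with a floor of 3 counts, and they cover counting error only. Ratios are the library labelled Otud1-/- over WT. The level that neutrophil RNA would bring is the receptor's level in neutrophil-like cells times the class's S100a8 and S100a9 over theirs, which assumes that all S100a8 and S100a9 of the class is free RNA. With 1 library per genotype no test was made. The ratio and interval code was tested on simulated data. Markers of each compared class were detected in both libraries, for example 15 of 15 in neutrophil-like and 11 of 11 in type 1 DC-like cells. Since the clusters were named from these markers, this does not check the names. Macrophage-like cells also had UMIs of 11 of 11 type 1 DC markers in both libraries. Python 3.11.15, numpy 2.4.6, scipy 1.17.1 and pandas 2.3.3 were used. Sequences and loci came from RefSeq and GENCODE tables of mm10. Alternatives were another scaling, cell filter, doublet step, clustering, minimum level, cell subset and depth, and, added after seeing the data, comparison within single clusters. Some genes of the pathway lists are not reported here by name.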

Additional observations from a re-analysis of the deposited data

Results flagged for a closer look

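The receptor ratios of some classes pointed in opposite directions, and these differences were not tested, since each genotype had 1 library. Clec4d was higher in the library labelled Otud1-/- in neutrophil-like, monocyte-like and macrophage-like cells and lower in plasmacytoid DC-like cells, so that the log2 ratio differed by 2.25, 2.40 and 2.20 between each of those 3 classes and plasmacytoid DC-like cells. The plasmacytoid DC-like value rests on 149 and 19 UMIs, and S100a8 and S100a9 in that class were 3179 and 221 CPM. Cd209a was higher in plasmacytoid DC-like and lower in type 1 DC-like cells, a difference of 2.55 between log2 ratios, of which the type 1 DC-like part rests on 23 and 8 UMIs with an interval that includes no difference.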

How the results depend on the processing

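Each count was recomputed under 14 alternatives. The main counts of 7 pairs higher, 3 lower and 7 genes with the same highest class moved by over 1.5 times in these cases: 1 lower pair at 5% mitochondrial UMIs, 1 at resolution 0.5, 1 with a minimum of 50 CPM and 100 UMIs, 10 with no minimum level and 5 within the other shared clusters (M2, M5, M8 and M17), and 11 higher pairs with the receptors kept among the variable genes and 12 in cells with Y-linked and no Xist UMIs. At 5% mitochondrial UMIs 4 of the 6 classes could be compared, and 5 at resolution 0.5. The cause was not tested, and beside the 11 and 12 higher pairs no share of all genes is given here. The number of genes with the same highest class ranged from 6 to 8. Of the 10 called pairs 6 kept their call under every alternative that gave a value. The other 4 were Clec4d in neutrophil-like cells (log2 ratio 0.31 within M0), Clec4d in monocyte-like cells (0.33 within M11), Clec4n in monocyte-like cells (0.54 with the receptors among the variable genes) and Clec4d in plasmacytoid DC-like cells (-0.20 without doublet removal). Of the 6 pairs that kept their call, Clec4e and Cd209a in type 1 DC-like cells had values under only 6 of the 14 alternatives. Changes of the minimum level alter only which pairs are compared, so they could not change a call. Of the 26 pairs under 1.5-fold, 16 passed it under some alternative. No paired analysis was possible because each genotype had 1 library, and for the same reason no library could be left out. In type 1 DC-like cells 4 of 8 receptors met the level and UMI minimum.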

Other observations

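Clec10a was also carried outside the compared classes. Mast cell or basophil-like cells had 207 CPM in WT (48 UMIs in 121 cells) and 213 CPM in the library labelled Otud1-/- (19 UMIs in 21 cells), with Cd209a at 34.4 CPM from 8 UMIs in WT and no UMI in the other library. Mature migratory DC-like cells (162 and 38 cells) had little of either gene, with 6.76 and 3.14 CPM of Clec10a, and had 51.8 CPM of Clec12a in WT from 23 UMIs against 2 UMIs in the other library.

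Ace- and Treml4-rich monocyte-like cells (cluster M7, 359 and 22 cells) had 294 and 247 CPM of Clec4d and 774 and 617 CPM of Clec4e. M7 held only 170298 UMIs of all genes in the library labelled Otud1-/-, so no order of the libraries is read from these levels. The library labelled Otud1-/- held few of these cells, and no comparison of fold was made for the cluster.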
